A study of Rattus norvegicus with 47 samples.

Results

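Transcripts of 33 genes of T lymphocytes were followed in the lung and blood of rats that had inhaled crystalline silica or filtered air. The members were matched by gene name in the 4 deposited tables, and all 33 were present among the 30045 genes of each table. The rats were healthy male Fischer 344 animals, an inbred laboratory strain, of 250 to 300 g. With the whole body exposed, they inhaled either filtered air or Min-U-Sil 5, a crystalline silica of small particle size, at 15 mg/m3. Exposure lasted 6 hours a day on 5 days. Lung and whole blood were taken 1 day or 6 months later, which gave 8 groups and 47 RNA-seq libraries. Each group held 6 libraries, except air lung at 6 months, which held 5. Animals at 1 day and 6 months were different rats, and the labels give no age. The blood RNA of both treatments had been depleted of globin transcripts.

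T cells recognise antigen through the T cell receptor, whose signal is carried into the cell by the CD3 chains. The coreceptors CD4 and CD8 mark helper and cytotoxic cells and bring in the kinase LCK, after which ZAP70 and the adaptor LAT pass the signal on. A second signal comes from costimulatory receptors such as CD28 and ICOS, while CTLA4 restrains it. Regulatory T cells carry the factor FOXP3 together with CTLA4 and the interleukin 2 receptor chain IL2RA, which recently activated T cells also carry. TCF7 and LEF1 are factors of naive and memory T cells, and inhaled silica is known to draw lymphocytes into the lung over time. Outside T cells, rat monocytes and macrophages also carry CD4, rat natural killer cells carry CD8A, B cells express Ikzf3 and platelets express Prkcq.

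Promoters are shown for 4 members on which the results below turn: Cd3e and Lef1, whose levels fell in blood between the times, and Il2ra and Icos, which rose in silica lung at 6 months. RefSeq promoters of the GRCr8 build were found for 26 of the 33 members, and the 250 bases before the start were searched on both strands among 33469 promoters. Capitals mark the core GGAAG, on either strand, bound by ETS factors, a family that T cells use widely; no other motif is marked. The sequences run 5′ to 3′ on the gene's strand. The Cd3e window lies at chr8:54211771-54212020 on the minus strand and the Lef1 window at chr2:222340463-222340712 on the plus strand. The Il2ra window lies at chr17:71808476-71808725 on the minus strand and the Icos window at chr9:69877549-69877798 on the plus strand.
Cd3e: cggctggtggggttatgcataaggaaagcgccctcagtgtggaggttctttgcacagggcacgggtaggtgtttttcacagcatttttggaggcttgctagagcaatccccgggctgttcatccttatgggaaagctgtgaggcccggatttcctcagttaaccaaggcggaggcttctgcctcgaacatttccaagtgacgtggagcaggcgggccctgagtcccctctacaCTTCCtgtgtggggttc
Lef1: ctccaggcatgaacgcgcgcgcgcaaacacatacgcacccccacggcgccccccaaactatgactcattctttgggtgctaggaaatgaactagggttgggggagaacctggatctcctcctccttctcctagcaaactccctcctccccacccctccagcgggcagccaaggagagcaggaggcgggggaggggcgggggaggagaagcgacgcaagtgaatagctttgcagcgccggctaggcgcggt
Il2ra: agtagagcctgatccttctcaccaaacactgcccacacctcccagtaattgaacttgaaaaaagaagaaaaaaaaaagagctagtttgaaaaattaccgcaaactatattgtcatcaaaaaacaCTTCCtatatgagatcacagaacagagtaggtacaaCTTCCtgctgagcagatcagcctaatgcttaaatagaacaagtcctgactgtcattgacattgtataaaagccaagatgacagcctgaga
Icos: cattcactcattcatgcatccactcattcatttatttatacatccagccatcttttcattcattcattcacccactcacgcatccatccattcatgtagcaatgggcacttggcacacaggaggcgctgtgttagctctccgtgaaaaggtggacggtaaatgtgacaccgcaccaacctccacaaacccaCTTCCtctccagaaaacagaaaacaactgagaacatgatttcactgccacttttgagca
Il2ra held 2 matches, Cd3e and Icos 1 each and Lef1 0, so that its line has no capitals. The ETS core was in 19 of the 26 member promoters (73.1%) and in 63.3% of all promoters. The letters TGTGGT, a RUNX core, were in 7 (26.9%) against 14.5% of all, and CTTTGA, a core of TCF7 and LEF1, in 5 (19.2%) against 13.9%. A GATA core, AGATAA, was in 2 (7.69%) against 10.3% of all. The NFAT core GGAAA, which can overlap the ETS core, was in 16 (61.5%) against 56.9%, and the AP-1 motif TGANTCA in 2 (7.69%) against 6.34%. These 6 motifs were all that were searched, and the shares are descriptions that were not tested. Some members are neighbours with no protein-coding gene between them: Cd3g, Cd3d and Cd3e on chromosome 8, Cd28, Ctla4 and Icos on chromosome 9, Cd8b and Cd8a on chromosome 4, and Cd5 and Cd6 on chromosome 1.

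Total estimated counts ran from 9.64M to 25.9M per library. Levels are given as CPM, counts scaled to a common library size with TMM factors over all libraries of a tissue. In these libraries 3 counts correspond to 0.116 to 0.311 CPM, a limit that covers counting error only. The summed level of the 33 members was 1720 to 2640 CPM in blood and 318 to 449 CPM in lung. For each 100 counts of Cd3e, air animals at 1 day had medians of 76.4 counts of Cd3g in lung and 77.6 in blood. For Tcf7 the medians were 658 in lung and 187 in blood, for Lef1 100 and 50.1, and for Gata3 123 and 13.5. Cd4 had medians of 865 in lung and 96.5 in blood. The part of other cells in these lung levels was not tested. In bulk RNA, fewer T cells and less RNA per T cell cannot be told apart. The defining markers of the labelled tissue were present in lung (lung tissue marker sum of 27400 CPM or more), against at most 200 CPM in blood. Differences below are log2 fold changes ± SE, with p adjusted over all tested genes by edgeR, and a member passed at an adjusted p under 0.05.

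In lung at 1 day, T cell transcripts were compared between silica and air to see whether they differed soon after exposure. The coreceptor Cd4 fell, and no other member passed. Of 32 members tested 0 were higher and 1 lower, against 8.39% and 5.72% of all tested genes. The member median was log2 0.01, with -0.00 over all genes. Ctla4, at 0.124 to 0.953 CPM, was too low to test. Cd4 lay between 81.1 and 95.8 CPM in air lungs (median 90.8) and between 65.4 and 83.7 CPM in silica lungs (median 72.3). Only the highest silica lung reached into the range of the air lungs. The difference was log2 -0.28 ± 0.06 (adjusted p = 0.00378, n = 6 each).

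Cd4 is shared with macrophages, and the 9 tested monocyte and macrophage markers did not move one way. Of these 4 rose and 2 fell. The sum of the 10 markers found ran from 24200 to 29700 CPM in air and from 24400 to 33200 CPM in silica lungs. Csf1r, the receptor of a macrophage growth factor, fell (log2 -0.16 ± 0.03, adjusted p = 0.0038), whereas Chi3l1, a chitinase-like protein, and Cx3cr1, a chemokine receptor of monocytes, rose. The part of these cells in the Cd4 result was not tested.

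Cd8a, a chain of the CD8 coreceptor, lay between 18.8 and 28.2 CPM in air (median 25.6) and between 17.9 and 23.7 CPM in silica lungs (median 19.6). The ranges overlapped, and the difference of log2 -0.26 ± 0.10 did not pass (adjusted p = 0.0998), although it did without air animal 38, the lowest of its group (log2 -0.33, adjusted p = 0.0227). Cd6, a receptor that tunes T cell signals, had medians of 8.51 CPM in air and 11.2 CPM in silica lungs, with highest values of 9.70 and 12.3 CPM and nearly equal lowest ones. Its difference was log2 0.31 ± 0.15 (adjusted p = 0.179), and it passed without silica animal 45, the lowest of its group (log2 0.41, adjusted p = 0.0392).

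The CD3 chains showed no called difference at 1 day. Cd3e, which encodes the epsilon chain, lay between 7.78 and 13.7 CPM in air lungs (median 9.70) and between 7.47 and 11.2 CPM in silica lungs (median 9.67). Foxp3 lay between 0.836 and 1.30 CPM in air (median 0.986) and between 0.681 and 1.35 CPM in silica (median 0.907). Lef1 lay between 7.72 and 11.8 CPM in air (median 10.1) and between 5.92 and 10.9 CPM in silica (median 8.94). For each of these genes the ranges of silica and air overlapped. Over all tested members the log2 difference lay between -0.31 and 0.31.

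Some other T cell genes passed at 1 day, though several are expressed by myeloid cells as well. Of all tested genes 8.39% were higher and 5.72% lower. The list medians were log2 0.03 for signalling genes, -0.04 for surface and migration genes and -0.10 for fate factors and cytokines. Among 24 other T cell receptor signalling genes 4 rose and 0 fell, led by Malt1, a protease on the route to NF-kB (log2 0.38 ± 0.06, adjusted p = 9e-04), the adaptor Lcp2 (log2 0.18 ± 0.04) and the phospholipase Plcg1 (log2 0.15 ± 0.04). Among 23 other surface and migration genes 4 rose and 0 fell, led by Tnfrsf9, the costimulatory receptor 4-1BB (log2 2.03 ± 0.20, adjusted p = 1.23e-05) and Havcr2, the checkpoint receptor TIM-3 (log2 0.86 ± 0.13). Of 14 fate factors and cytokines 0 rose and 2 fell, among them the factor Maf (log2 -0.18 ± 0.05). Beside these, 9 of 10 neutrophil markers and 8 of 8 proliferation genes rose. The part of other cells in these differences was not tested.

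**Figure D1:**
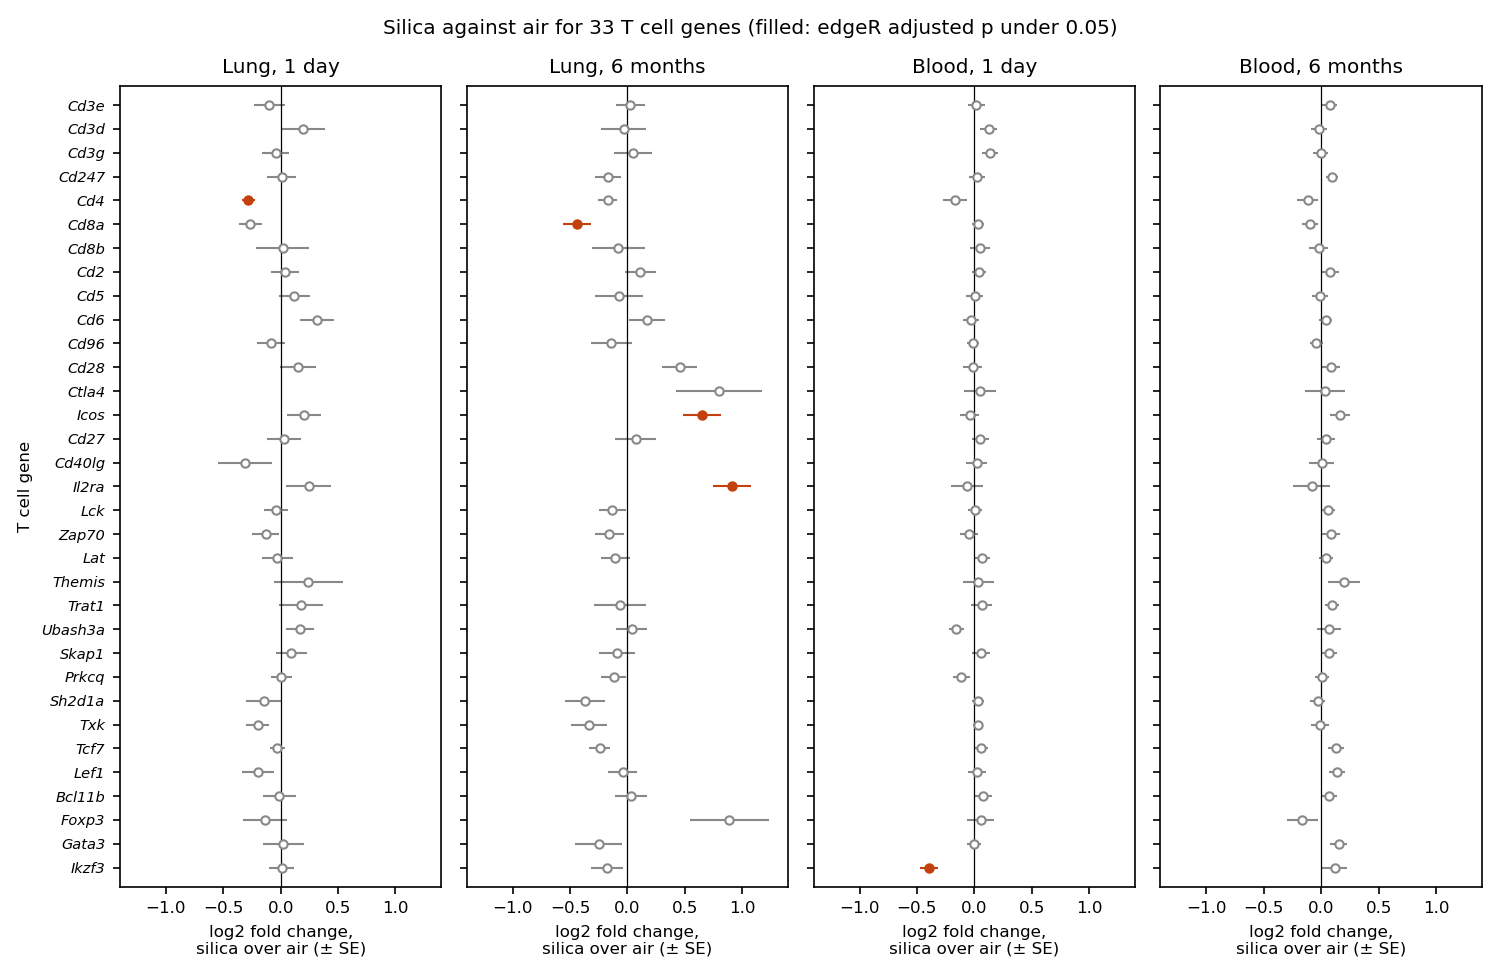
Log2 fold change of silica over air with its SE (x axis) for the 33 T cell genes (y axis, ordered by role) in lung and blood at 1 day and 6 months; filled red points passed the edgeR test and genes with no point were too low to test. The points that passed are Cd4 in lung at 1 day, Cd8a, Icos and Il2ra in lung at 6 months, and Ikzf3 in blood at 1 day.

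In lung at 6 months Il2ra and Icos were higher in silica animals and Cd8a was lower. Of 31 members tested 2 rose, Il2ra and Icos, against 9.84% of all genes, and 1 fell, Cd8a, against 6.38%. The member median was log2 -0.07, with -0.01 over all genes. Cd40lg and Themis were too low to test. The share of members called was therefore no larger than among all genes, in either direction.

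Il2ra, the alpha chain of the interleukin 2 receptor, was at 1.24, 1.31, 1.25, 1.29 and 1.31 CPM in the 5 air lungs. In silica lungs it lay between 1.81 and 3.07 CPM with a median of 2.33. Every silica lung lay above every air lung, as did those of 6.81% of all tested genes. The level rested on 15 to 17 counts in air and 23 to 48 counts in silica libraries. The difference was log2 0.91 ± 0.17 (adjusted p = 0.00309), and it passed with each library left out in turn.

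Icos, the inducible costimulator, was at 7.09, 7.30, 8.94, 5.77 and 6.45 CPM in air lungs and between 8.41 and 15.8 CPM in silica lungs (median 10.2). The lowest silica lung lay within the air range. The difference was log2 0.65 ± 0.17 (adjusted p = 0.0182), and without air animal 53 it narrowly missed the threshold (log2 0.58, adjusted p = 0.0502).

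The neighbouring receptors Cd28 and Ctla4 did not pass, and neither did Foxp3. Cd28, the main costimulatory receptor, was at 4.61, 4.02, 2.76, 3.57 and 3.43 CPM in air and between 3.84 and 6.05 CPM in silica lungs (median 5.01). That gave log2 0.45 ± 0.15 (adjusted p = 0.0599), and it passed without air animal 49 (log2 0.55, adjusted p = 0.0389). Ctla4, the inhibitory partner of CD28, was at 0.731, 0.82, 0.502, 0.608 and 1.22 CPM in air and 2.28, 1.61, 1.81, 0.569, 0.726 and 1.18 CPM in silica lungs, for log2 0.80 ± 0.37 (adjusted p = 0.168). For both genes the ranges of silica and air overlapped.

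Foxp3, the lineage factor of regulatory T cells, was at 1.68, 1.80, 1.25, 0.836 and 1.31 CPM in air lungs. In silica lungs it ran from 1.07 to 4.40 CPM with a median of 2.25. Silica animals 58, 60, 59 and 62 lay above every air animal at 4.40, 3.62, 2.59 and 1.92 CPM. Animals 64 and 61 lay within the air range at 1.73 and 1.07 CPM. The difference was log2 0.89 ± 0.34 (adjusted p = 0.0962); it passed without animal 61 (log2 1.04, adjusted p = 0.0323) and with all 4 lung groups in 1 model (log2 0.88, adjusted p = 0.0277).

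Animals 58 and 60 were also the highest of the silica lungs for Il2ra (3.07 and 2.90 CPM), Icos (15.8 and 12.9 CPM) and Ctla4 (2.28 and 1.81 CPM). Animal 58 was also the highest silica lung for Cd3d (6.92 CPM, with the others at 3.03 to 4.40 CPM), Cd3g (12.0 CPM), Cd2 (11.2 CPM) and Cd5 (10.2 CPM). For Cd3e animals 58 and 60 were at 11.9 and 10.6 CPM, within a silica range of 8.79 to 12.6 CPM. These orders were noticed after the values were seen, and the part of the T cell total in them was not tested.

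**Figure D2:**
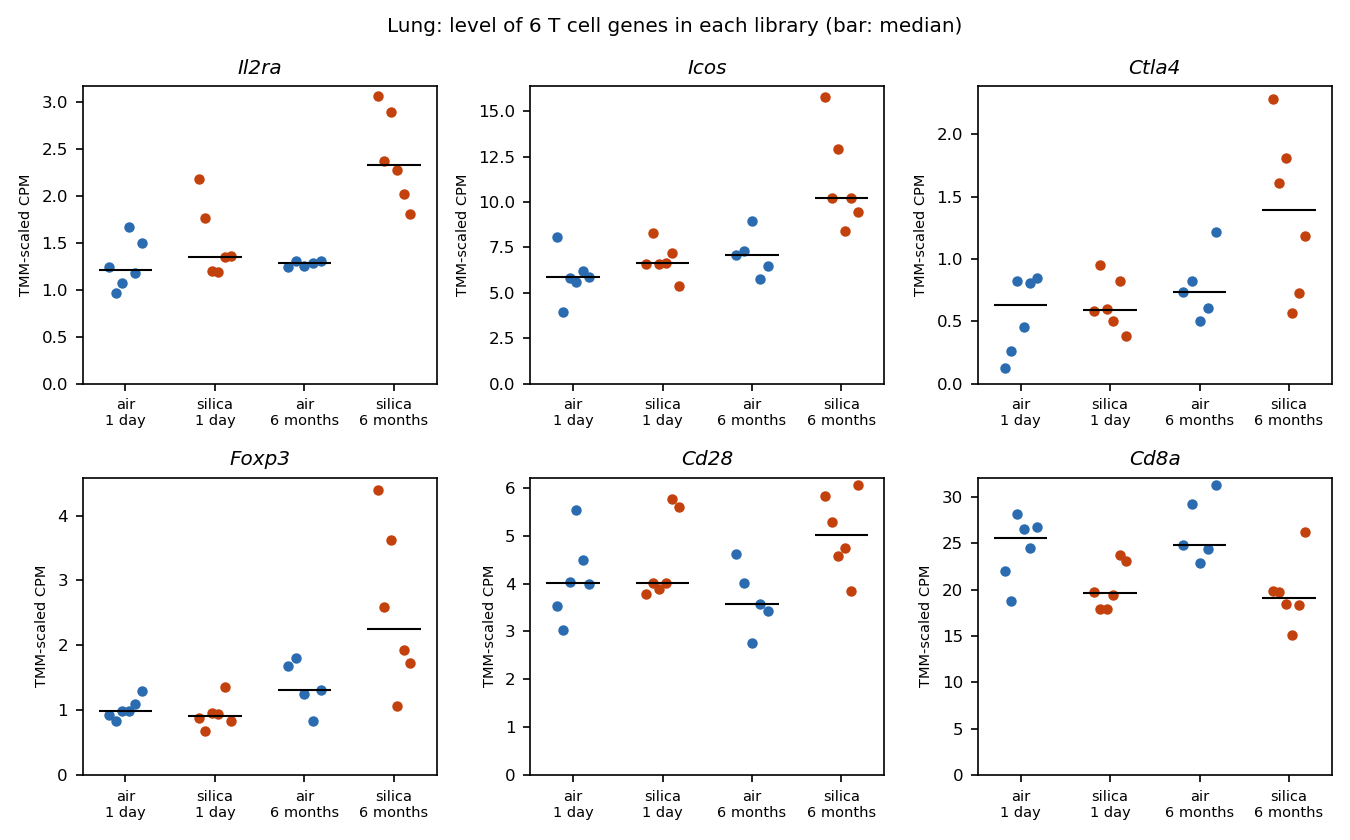
TMM-scaled CPM (y axis, linear, from 0) of 6 T cell genes in each lung library, in air (blue) and silica (red) groups at 1 day and 6 months (x axis); bars are medians. All 6 silica lungs at 6 months lie above all 5 air lungs for Il2ra, from 1.81 CPM upward, while Foxp3 spreads from 1.07 to 4.40 CPM.

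Cd8a was at 24.8, 29.3, 22.9, 24.4 and 31.3 CPM in air lungs and between 15.1 and 26.2 CPM in silica lungs (median 19.1). Apart from animal 64 at 26.2 CPM, all silica lungs lay below all air lungs. The difference was log2 -0.44 ± 0.12 (adjusted p = 0.0292), and it no longer passed without air animal 51, air animal 54, silica animal 60 or silica animal 62 (adjusted p from 0.0558 to 0.0686). Cd8b, the other chain of the coreceptor, did not pass (log2 -0.08 ± 0.23, adjusted p = 0.85), nor did Cd4 (log2 -0.17 ± 0.08, adjusted p = 0.18). Cd4 was at 95.2, 114, 97.4, 84.8 and 116 CPM in air and 81.9 to 101 CPM in silica lungs (median 88.1).

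CD8A is also carried by rat natural killer cells. Of 11 tested natural killer and cytotoxic markers 0 rose and 1 fell, the protease gene Gzmb (log2 -0.71 ± 0.21, adjusted p = 0.0345). The estimate was below 0 for 10 of the 11, with a median of log2 -0.42. The sum of the list ran from 210 to 328 CPM in air and from 132 to 253 CPM in silica lungs. Their part in the Cd8a result was not tested.

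The receptor chains and most kinases showed no called difference at 6 months. Cd3e was at 12.7, 11.1, 7.94, 10.2 and 9.71 CPM in air lungs and between 8.79 and 12.6 CPM in silica lungs (median 10.2), a difference of log2 0.02 ± 0.13 (adjusted p = 0.927). Of 9 tested kinases and adaptors 0 passed, and the estimate was below 0 for 8. Lef1 was at 7.60, 8.03, 6.35, 7.14 and 8.41 CPM in air and 6.21 to 9.98 CPM in silica (median 6.82), for log2 -0.04 ± 0.13. Tcf7 was at 66.7, 62.5, 54.5, 63.3 and 66.1 CPM in air and 46.9 to 68.3 CPM in silica (median 50.4), for log2 -0.24 ± 0.09 (adjusted p = 0.0892). All of these ranges overlapped between silica and air.

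Silica animal 64 was the highest of its group for Tcf7, Lef1, Txk, a kinase of the TEC family, and Themis. The same animal was also the highest for further members, among them Cd3e (12.6 CPM), Cd6 (14.4 CPM), Cd8a (26.2 CPM) and Lck (30.7 CPM). The part of the T cell total in its values was not tested. Without this animal 6 members passed: Il2ra and Icos rose and Cd8a fell, and Tcf7 (log2 -0.33, adjusted p = 0.00409), Txk (log2 -0.46, adjusted p = 0.0301) and Sh2d1a, the adaptor SAP (log2 -0.49, adjusted p = 0.0466), fell as well.

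Of 25 other surface and migration genes 4 rose and 1 fell in silica lung at 6 months, with a median of log2 0.04, beside 9.84% of all genes higher and 6.38% lower. They were led by the receptor Slamf6 (log2 0.81 ± 0.14, adjusted p = 0.00222), Tnfrsf9 (log2 1.32 ± 0.26, adjusted p = 0.00506) and Tnfrsf4, the costimulatory receptor OX40 (log2 1.06 ± 0.24, adjusted p = 0.00991). The 1 that fell, named after its value was seen, was Pdcd1, the checkpoint receptor PD-1 (log2 -0.78 ± 0.24, adjusted p = 0.0469). Of 24 other signalling genes 4 rose and 2 fell, led by Vav1, an exchange factor (log2 0.40 ± 0.05), and by falls of the kinase Itpkb (log2 -0.29 ± 0.06) and the factor Nfatc3 (log2 -0.14 ± 0.04). Of 14 fate factors and cytokines 1 fell, Ets1 (log2 -0.29 ± 0.07, adjusted p = 0.0124). Il5, Il13, Il17a and Il21, cytokines of helper T cells, were at 0 in every lung of both groups.

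Markers of other cells moved in the same lungs. Of 9 tested monocyte and macrophage markers 6 rose and 1 fell. The sum of the 10 markers found was 23300 to 30500 CPM in air and 34800 to 47300 CPM in silica. Besides, 6 of 10 neutrophil markers and 8 of 8 proliferation genes rose. Of 7 tested innate lymphoid and mast cell markers 2 rose and 0 fell, and the estimate was below 0 for 2. One that rose was Cpa3, of mast cells (log2 1.53 ± 0.41, adjusted p = 0.0226). The sum of all 9 ran from 267 to 339 CPM in air and from 236 to 322 CPM in silica. Of 3 tested markers of lymph node stroma 0 passed. The sum of the 5 markers found, 134 to 150 CPM in silica, lay within 130 to 187 CPM in air. The part of the other cells in the Il2ra and Icos results was not tested.

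The silica difference at 6 months was compared with that at 1 day in lung to ask whether it had changed with time. No member passed by edgeR (0 of 33, 2 at an unadjusted p under 0.05) or by DESeq2, against 1.12% of all genes with a higher and 0.253% with a lower difference at 6 months. The smallest p-values belonged to Il2ra (log2 0.67 ± 0.25, adjusted p = 0.229), Foxp3 (log2 1.02 ± 0.40, adjusted p = 0.245) and Icos (log2 0.45 ± 0.23, adjusted p = 0.392). Cd3e gave log2 0.13 ± 0.19, Cd4 0.11 ± 0.10, Cd8a -0.17 ± 0.17 and Lef1 0.16 ± 0.19 (adjusted p from 0.666 to 0.825). A call at 6 months and none at 1 day thus did not amount to a called difference between the times, which stand in separate tables and different animals.

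In blood at 1 day, circulating T cell transcripts showed few differences between silica and air. Of 33 members 0 rose and 1 fell, against 1.19% and 0.18% of all genes. The member median was log2 0.03, with -0.01 over all genes. Ikzf3, which encodes the factor Aiolos of T and B cells, ran from 28.4 to 33.8 CPM in air (median 32.2) and from 20.7 to 29.2 CPM in silica blood (median 23.1). Animal 43, at 29.2 CPM, was the only silica animal within the air range. The difference was log2 -0.40 ± 0.08 (adjusted p = 0.0227). It missed the threshold in 8 of 12 fits that each left out 1 library (air 38, 39, 41 or 42, silica 45, 46, 47 or 48; adjusted p from 0.0507 to 0.0616).

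The next smallest p-values in blood at 1 day were those of Ubash3a, a suppressor of T cell receptor signals (log2 -0.16 ± 0.07, adjusted p = 0.337), and Cd3g, the CD3 gamma chain (log2 0.14 ± 0.07, adjusted p = 0.425). Ubash3a ran from 18.9 to 24.5 CPM in air (median 24.2) and from 18.8 to 21.8 CPM in silica (median 20.8), and Cd3g from 96.9 to 127 CPM in air (median 117) and 120 to 142 CPM in silica (median 122). For both genes the ranges overlapped.

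Cd3e was at 120 to 159 CPM in air (median 154) and 135 to 168 CPM in silica blood (median 147). Cd4 was at 126 to 175 CPM in air (median 144) and 109 to 166 CPM in silica (median 126), and Cd8a at 157 to 173 CPM in air (median 164) and 160 to 186 CPM in silica (median 164). Foxp3 was at 4.21 to 5.08 CPM in air (median 4.54) and 3.47 to 5.50 CPM in silica (median 5.09), and Lef1 at 64.3 to 90.9 CPM in air (median 73.7) and 69.4 to 81.4 CPM in silica (median 76.5). The ranges of silica and air overlapped for all of these.

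Neutrophil markers moved in the same blood. Of 9 tested 5 rose. The sum of all 10 was 1980 to 2490 CPM in air and 3220 to 3990 CPM in silica blood, without overlap. The summed T cell members ran from 2190 to 2640 CPM and from 2320 to 2620 CPM. B cells also express Ikzf3. Of 12 tested B cell markers 0 passed by edgeR and 0 had an unadjusted p under 0.05. The part of B cells in the Ikzf3 result was not tested. No other T cell list held a called gene: 0 of 24 signalling genes, 0 of 26 surface and migration genes and 0 of 14 fate factors by edgeR, with 4, 2 and 3 at an unadjusted p under 0.05.

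In blood at 6 months no member passed between silica and air. Of 33 members 0 passed by edgeR, with 0 at an unadjusted p under 0.05, and 0 passed by DESeq2, against 0.0086% of all genes by edgeR. The member median was log2 0.04, with -0.01 over all genes. The smallest p-values were those of Gata3, the factor of type 2 helper cells (log2 0.15 ± 0.07, adjusted p = 0.584), Lef1 (log2 0.14 ± 0.07, adjusted p = 0.595) and Icos (log2 0.16 ± 0.09, adjusted p = 0.604). Gata3 ran from 14.0 to 17.1 CPM in air (median 15.2) and from 16.0 to 20.3 CPM in silica (median 16.9), and Icos from 13.8 to 16.5 CPM and from 12.8 to 20.6 CPM (medians 14.7 and 16.8). Lef1 ran from 36.9 to 50.5 CPM in air (median 41.2) and from 43.8 to 48.1 CPM in silica (median 47.3). For all 3 the ranges overlapped.

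Cd3e in blood at 6 months was at 84.7 to 105 CPM in air (median 94.9) and 86.7 to 108 CPM in silica (median 102). Cd4 was at 128 to 174 CPM in air (median 154) and 121 to 168 CPM in silica (median 139), and Cd8a at 103 to 136 CPM in air (median 114) and 103 to 125 CPM in silica (median 109). Foxp3 was at 4.03 to 6.89 CPM in air (median 4.91) and 3.62 to 5.05 CPM in silica (median 4.61). Silica and air overlapped for each of these genes.

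No member passed for a change of the silica difference in blood between the times by edgeR (0 of 33, 1 at an unadjusted p under 0.05, against 0% of all genes). The smallest p-value was that of Ikzf3 (log2 0.52 ± 0.14, adjusted p = 0.146), which passed in DESeq2 (log2 0.51, adjusted p = 0.0382). Next came Ubash3a (log2 0.24 ± 0.13, adjusted p = 0.537) and Gata3 (log2 0.16 ± 0.09, adjusted p = 0.558). Cd3e gave log2 0.06 ± 0.10, Cd4 0.05 ± 0.14, Cd8a -0.11 ± 0.09, Foxp3 -0.21 ± 0.18 and Lef1 0.12 ± 0.11 (adjusted p from 0.694 to 0.939).

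Blood and lung were then compared for the silica difference itself. At 1 day 0 of 33 members passed by edgeR (4 at an unadjusted p under 0.05) and 0 by DESeq2, against 4.03% of all genes. The leading estimates, blood minus lung, were those of Cd8a (log2 0.34 ± 0.11, adjusted p = 0.0962), Txk (log2 0.28 ± 0.10, adjusted p = 0.135) and Ikzf3 (log2 -0.36 ± 0.13, adjusted p = 0.143). Cd3e gave log2 0.15 ± 0.15, Cd4 0.16 ± 0.12, Foxp3 0.24 ± 0.21 and Lef1 0.27 ± 0.15 (adjusted p from 0.393 to 0.659). Cd8a passed without air lung 38 (adjusted p = 0.0196), and Ikzf3 without silica blood 43 (adjusted p = 0.0377).

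At 6 months 1 of 33 members passed, against 3.53% of all genes: the silica difference of Il2ra was lower in blood than in lung (log2 -0.96 ± 0.24, adjusted p = 0.0223). In blood the medians of Il2ra were 5.71 CPM in air and 5.20 CPM in silica, in overlapping ranges, with a difference of log2 -0.08 ± 0.16. With the 9 animals that gave both tissues and the animal as a replicate block, Il2ra no longer passed (log2 -1.11, adjusted p = 0.0740) and Tcf7 did (log2 0.49, adjusted p = 0.0314). In the same animals with no block Il2ra passed (log2 -1.10, adjusted p = 0.0254). Tcf7 (log2 0.39 ± 0.12, adjusted p = 0.0639) and Foxp3 (log2 -1.03 ± 0.35, adjusted p = 0.111) had the next smallest p-values. Cd3e gave log2 0.09 ± 0.13, Cd4 0.08 ± 0.13, Cd8a 0.37 ± 0.14 and Lef1 0.21 ± 0.13 (adjusted p from 0.151 to 0.863). DESeq2 called Il2ra, Tcf7 and Cd247. Without air blood 53 or air lung 52 Tcf7 passed beside Il2ra, without silica lung 61 Foxp3 did (log2 -1.18, adjusted p = 0.0332), and without silica lung 64 Tcf7 and Cd8a did (adjusted p = 0.00746 and 0.0307).

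The level of the members was also compared between the 2 times in blood of air animals. Most T cell transcripts were lower at 6 months than at 1 day: of 33 members 0 were higher and 27 lower, whereas 22.1% of all genes were higher and 22.1% lower. The member median was log2 -0.47, with -0.05 over all genes. All members tested fell in the CD3 chains (4 of 4) and among adhesion and tuning receptors (4 of 4). Beside them fell 2 of 3 coreceptors, 4 of 6 costimulatory genes, 9 of 10 kinases and adaptors and 4 of 6 transcription factors. For 21 members every animal at 6 months lay below every animal at 1 day, as for 8.58% of all genes. The times stand in separate tables of different animals, so time, age and any difference in handling or sequencing cannot be told apart.

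Lef1 had the lowest estimate. It ran from 64.3 to 90.9 CPM at 1 day (median 73.7) and from 36.9 to 50.5 CPM at 6 months (median 41.2). The groups did not overlap, and the difference was log2 -0.85 ± 0.09 (adjusted p = 1.46e-05). Its relative Tcf7 fell as well (log2 -0.56 ± 0.08), as did the factors Bcl11b, which keeps T cell identity (log2 -0.43 ± 0.07), and Gata3 (log2 -0.41 ± 0.07).

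Of the receptor chains, Cd3e fell from 120 to 159 CPM (median 154) to 84.7 to 105 CPM (median 94.9), for log2 -0.64 ± 0.08 (adjusted p = 2.91e-05). The groups did not overlap. Cd247, the zeta chain, fell by log2 0.59 ± 0.06 (adjusted p = 1.48e-05), Cd3g by log2 0.60 ± 0.08 (adjusted p = 5.17e-05) and Cd3d by log2 0.67 ± 0.09. Cd8a fell from 157 to 173 CPM (median 164) to 103 to 136 CPM (median 114), for log2 -0.51 ± 0.07 (adjusted p = 6.19e-05), again without overlap. Cd8b was lower too (log2 -0.47 ± 0.09).

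The kinase gene Lck had the smallest p-value. It ran from 222 to 261 CPM at 1 day (median 240) and from 150 to 175 CPM at 6 months (median 163), with no overlap, for log2 -0.57 ± 0.06 (adjusted p = 1.26e-05). Cd247 had run from 84.2 to 109 CPM (median 99.6) and then from 62.5 to 68.0 CPM (median 63.7). Zap70, the next kinase, fell by log2 0.58 ± 0.08 (adjusted p = 6.19e-05) and the adaptor Lat by log2 0.64 ± 0.07 (adjusted p = 2.33e-05). Skap1, an adaptor of adhesion (log2 -0.60 ± 0.08, adjusted p = 3.97e-05), and Sh2d1a (log2 -0.55 ± 0.06, adjusted p = 1.69e-05) fell likewise. Txk, Themis, which sets thresholds in thymocytes, Trat1 and Ubash3a fell by log2 0.41 to 0.55.

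Among costimulatory genes Cd27, a receptor of naive T cells, fell by log2 0.65 ± 0.08 (adjusted p = 2.71e-05), and Cd40lg, by which helper cells address B cells, by log2 0.68 ± 0.11. Icos and Cd28 changed by log2 -0.52 ± 0.08 and -0.46 ± 0.08. The surface receptors Cd5 and Cd6, which damp T cell signals, changed by log2 -0.39 ± 0.07 and -0.46 ± 0.07, and Cd2 and Cd96 by log2 -0.27 ± 0.07 and -0.18 ± 0.05.

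The 6 members that did not pass were Cd4, Foxp3, Il2ra, Ctla4, Prkcq and Ikzf3. Cd4 ran from 126 to 175 CPM at 1 day (median 144) and from 128 to 174 CPM at 6 months (median 154), for log2 0.05 ± 0.09 (adjusted p = 0.67). Foxp3 ran from 4.21 to 5.08 CPM (median 4.54) and from 4.03 to 6.89 CPM (median 4.91), for log2 0.13 ± 0.12 (adjusted p = 0.428). Il2ra gave log2 -0.03 ± 0.16, Ctla4 -0.23 ± 0.14, Prkcq, the kinase PKC theta, 0.00 ± 0.07 and Ikzf3 -0.21 ± 0.10. Several of these are genes of regulatory T cells, and Cd4, Prkcq and Ikzf3 are shared with monocytes, platelets and B cells. The part of any of these cells in the 6 results was not tested. Without air animal 53 at 6 months Ikzf3 passed too (log2 -0.29, adjusted p = 0.0186).

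**Figure D3:**
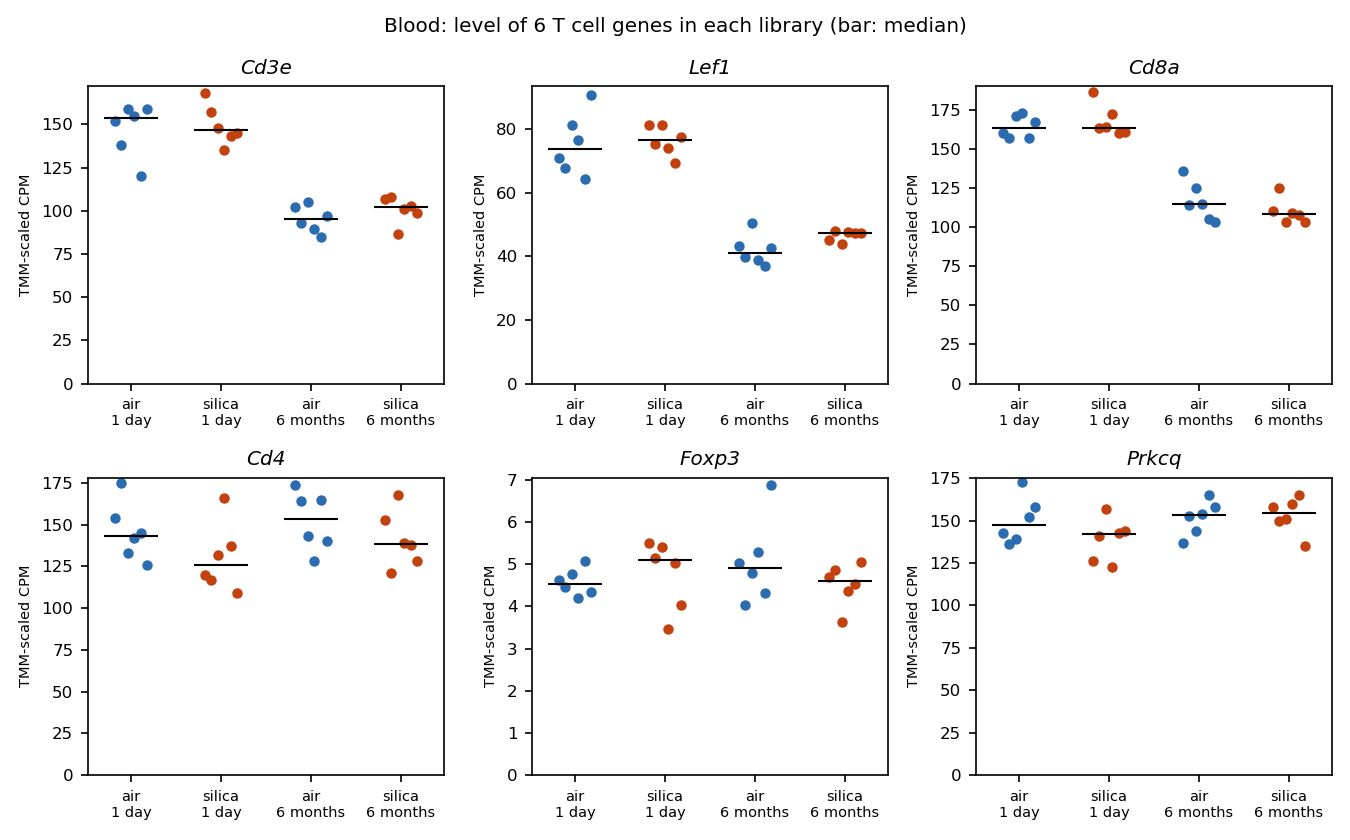
TMM-scaled CPM (y axis, linear, from 0) of 6 T cell genes in each blood library, in air (blue) and silica (red) groups at 1 day and 6 months (x axis); bars are medians. Cd3e, Lef1 and Cd8a lie lower at 6 months in both treatments, with the air medians of Lef1 at 73.7 and 41.2 CPM, while the ranges of Cd4, Foxp3 and Prkcq overlap.

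Other T cell genes shared the direction in part, beside 22.1% of all genes higher and 22.1% lower. Of 24 other signalling genes 2 were higher and 12 lower, led by Plcg1 (log2 -0.58 ± 0.06) and the diacylglycerol kinase Dgka (log2 -0.59 ± 0.07). Of 25 surface and migration genes 2 were higher and 8 lower, led by Il2rg, the common cytokine receptor chain (log2 -0.43 ± 0.05), Ccr7, the homing receptor of naive T cells (log2 -0.58 ± 0.09), and S1pr1, which lets lymphocytes leave lymph nodes (log2 -0.41 ± 0.06). Of 14 fate factors and cytokines 1 was higher and 8 lower. They were led by Satb1 (log2 -0.71 ± 0.09), a chromatin organiser of T cells, by a rise of Zbtb7b, the factor of CD4 lineage choice (log2 0.30 ± 0.05), and by Stat4 (log2 -0.36 ± 0.06).

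Between the same air groups most neutrophil, platelet and erythroid markers were higher at 6 months. Neutrophil markers were higher in 9 of 9 tested, with sums over all 10 of 1980 to 2490 CPM at 1 day and 3780 to 4660 CPM at 6 months. Platelet markers were higher in 8 of 8, and their sums ran from 1680 to 2630 CPM and from 2540 to 3220 CPM. Of 12 erythroid markers 11 were higher, with sums of 38300 to 66000 CPM and 61000 to 109000 CPM. Monocyte and macrophage markers were higher in 4 of 8 and lower in 0. Of 12 B cell markers 0 were higher and 3 lower, with 11 estimates below 0 and a median of log2 -0.28. Of 11 natural killer and cytotoxic markers 1 was higher and 2 lower, with 9 estimates below 0 and a median of log2 -0.22. The part of these cells in the lower T cell levels was not tested. With the listed neutrophil, platelet and erythroid markers and globin and mitochondrial RNA genes left out before normalization, again 27 members were lower, with a median of log2 -0.47. Other transcripts of these cells stayed in the totals, so this fit cannot show their part.

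The silica animals, which share no library with the air animals, gave the same comparison in blood. Here too, time, age and any difference in handling or sequencing cannot be told apart. Of 33 members 1 was higher and 27 lower, whereas 23.2% of all genes were higher and 23.9% lower, and the member median was log2 -0.43. Every animal at 6 months lay below every animal at 1 day for 20 members, against 10.2% of all genes. Cd3e went from 135 to 168 CPM to 86.7 to 108 CPM (log2 -0.58 ± 0.06, adjusted p = 1.44e-05). Lef1 went from 69.4 to 81.4 CPM to 43.8 to 48.1 CPM (log2 -0.73 ± 0.05, adjusted p = 7.36e-07). The smallest p-value was that of Cd3d, which went from 73.3 to 84.3 CPM to 41.6 to 48.7 CPM (log2 -0.81 ± 0.05, adjusted p = 4.99e-07).

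Cd8a in silica blood went from 160 to 186 CPM to 103 to 125 CPM (log2 -0.63 ± 0.06, adjusted p = 5.48e-06). Lat went from 95.3 to 110 CPM to 63.9 to 67.6 CPM (log2 -0.66 ± 0.05, adjusted p = 1.05e-06). Cd4 (121 to 168 CPM at 6 months, median 139, log2 0.10 ± 0.11) and Foxp3 (3.62 to 5.05 CPM, median 4.61, log2 -0.09 ± 0.13) again did not pass, nor did Il2ra, Ctla4 and Prkcq. The other members that fell, by edgeR at an adjusted p under 0.05, were Cd3g and Cd247, Cd8b, Cd2, Cd5, Cd6 and Cd96, Cd28, Icos, Cd27 and Cd40lg, Lck, Zap70, Themis, Trat1, Ubash3a, Skap1, Sh2d1a and Txk, and the factors Tcf7, Bcl11b and Gata3. Among them Cd3g gave log2 -0.74 ± 0.06 (adjusted p = 2.36e-06), Sh2d1a -0.61 ± 0.06 (7.8e-06), Tcf7 -0.49 ± 0.05 (9.74e-06), Txk -0.50 ± 0.05 (1.33e-05) and Cd247 -0.52 ± 0.06 (1.9e-05). Themis did not pass in 6 fits that each left out 1 library, silica blood 43, 44, 45, 60, 61 or 62 (adjusted p from 0.0532 to 0.0667). Ubash3a did not pass in 1 alternative fit that kept all libraries. Ikzf3, lower in silica than air blood at 1 day, was higher at 6 months than at 1 day (log2 0.30 ± 0.09, adjusted p = 0.0106). This comparison shares its libraries with the silica comparisons above.

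In the lungs of air animals no member passed between the times. Of 33 members 0 passed by edgeR (5 at an unadjusted p under 0.05) and 0 by DESeq2, against 0.36% of all genes, and the member median was log2 0.08, with -0.00 over all genes. The smallest p-values were those of Lef1 (log2 -0.41 ± 0.12, adjusted p = 0.141), Ubash3a (log2 0.30 ± 0.10, adjusted p = 0.188) and Ikzf3 (log2 0.35 ± 0.13, adjusted p = 0.208). Lef1 had been at 7.72 to 11.8 CPM at 1 day and was at 7.60, 8.03, 6.35, 7.14 and 8.41 CPM at 6 months, so that the groups overlapped. Ubash3a was at 3.83 to 4.85 CPM at 1 day and at 5.77, 6.15, 5.10, 4.71 and 5.71 CPM at 6 months. Ikzf3 was at 9.71 to 14.7 CPM and then at 14.9, 17.4, 12.1, 13.3 and 17.7 CPM. Both overlapped as well. Cd3e, at 7.78 to 13.7 CPM and then 7.94 to 12.7 CPM, gave log2 0.02 ± 0.15. Cd4 gave log2 0.18 ± 0.08, Cd8a 0.12 ± 0.11 and Foxp3 0.41 ± 0.22 (adjusted p from 0.284 to 0.617).

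**Figure D4:**
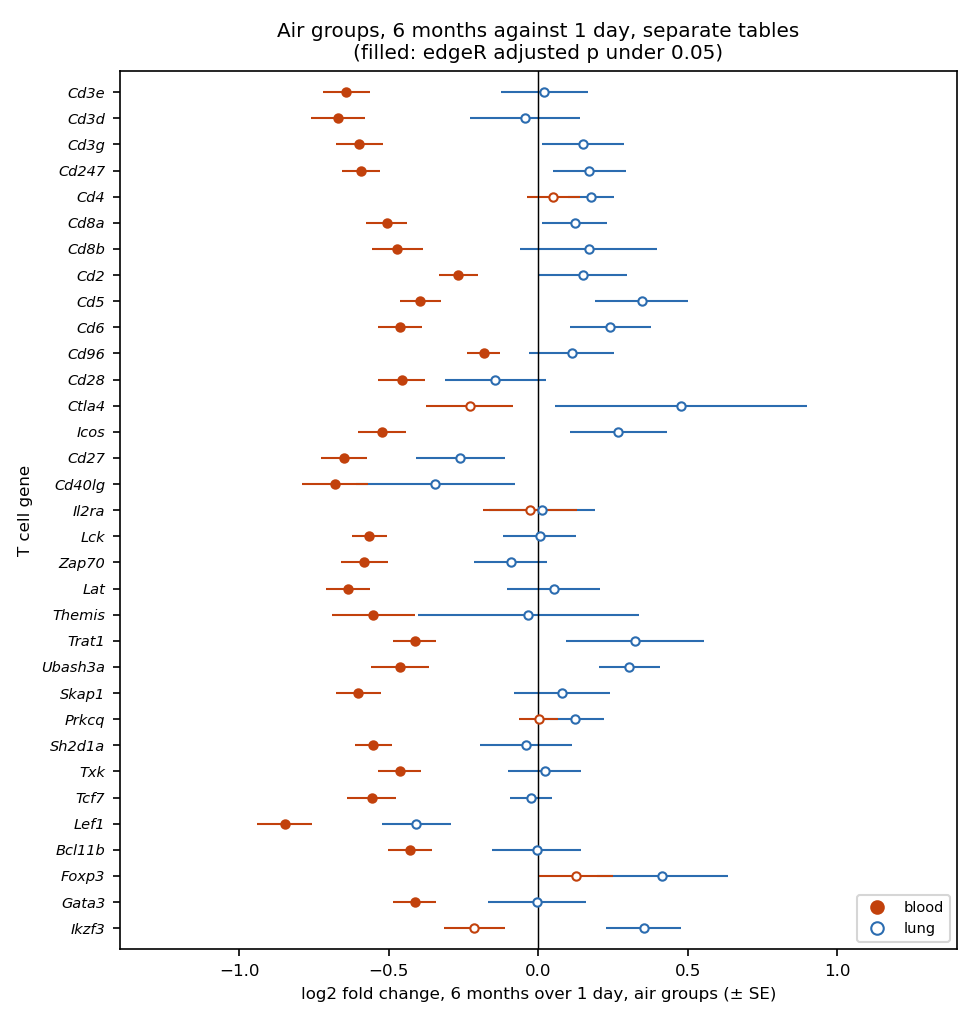
Log2 fold change of 6 months over 1 day with its SE (x axis) in air animals for the 33 T cell genes (y axis), in blood (red) and lung (blue); filled points passed the edgeR test. In blood 27 points are filled and lie below 0, down to -0.85 for Lef1, and no lung point is filled.

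Tested directly, the change between the times was lower in blood than in lung for 18 of 33 members, with 0 higher, against 8.33% of all genes lower. The estimate was below 0 for all 33, with a median of log2 -0.51. Over all genes 47.8% of the estimates were above 0, and the median was log2 -0.02. The smallest p-values were those of Cd247 (log2 -0.73 ± 0.13, adjusted p = 0.000557), Ubash3a (log2 -0.74 ± 0.15, adjusted p = 0.00123) and Cd3g (log2 -0.72 ± 0.15, adjusted p = 0.00185). The others that passed were Cd3e and Cd3d of the CD3 chains, Cd8a, Cd5, Cd6, Icos, the kinases and adaptors Lck, Zap70, Lat, Trat1, Skap1, Sh2d1a and Txk, and the factors Tcf7 and Ikzf3. Lef1, at log2 -0.85 in blood and -0.41 in lung, missed the threshold (log2 -0.42 ± 0.15, adjusted p = 0.0582). It passed in 8 alternative fits. Among them were 6 fits that each left out 1 library: air blood 38, 41 or 53, or air lung 39, 41 or 52 (adjusted p from 0.0226 to 0.0485).

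With the 10 air animals that gave both tissues and the animal as a replicate block, 13 of the 18 passed, and Cd3d, Zap70, Trat1, Sh2d1a and Ikzf3 did not (adjusted p from 0.0805 to 0.151). With the same animals and no block 14 passed: Cd3d, Zap70, Trat1 and Sh2d1a already did not (adjusted p from 0.0984 to 0.173), whereas Ikzf3 did (adjusted p = 0.0472). Cd4 (log2 -0.10 ± 0.12) and Foxp3 (log2 -0.25 ± 0.23) did not pass with all animals (adjusted p = 0.653 and 0.510). Leaving out 1 library at a time gave 14 to 22 members, the lowest count without air lung 49 at 6 months, where Cd3d, Zap70, Trat1 and Sh2d1a did not pass (adjusted p from 0.0553 to 0.107).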

How the data were processed

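Lung and whole-blood RNA was sequenced from stranded mRNA libraries, per the labels' protocols. The submitters' processing notes name the tools Salmon 1.10.1, STAR 2.6.1d, Trim Galore 0.6.7, cutadapt 3.4 and bcl2fastq 2.19, with Rnor_6.0 as the build. Each of the 4 tables covers 1 tissue at 1 time and holds the estimated counts of each gene as the authors deposited them, made with Salmon per the labels and not normalized. They were rounded to whole numbers here, and all columns were matched to samples by title. Estimated counts split reads between similar genes. Of the gene names 266 stand on more than 1 line, none of them a member.

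Genes were tested across the whole table by edgeR's quasi-likelihood test (version 4.0.16, R 4.3.3). Genes passed filterByExpr at a minimum count of 10, scaling used TMM, and p-values were adjusted by Benjamini and Hochberg's method at a threshold of 0.05. Silica was compared with air within a table, and times and tissues by interactions over 4 groups. The SE was taken as the absolute log2 fold change divided by the square root of F. The members and gene lists were chosen with earlier results of these data known. In each comparison the members past the threshold, or at least the 3 with the smallest p, were named, with Cd3e, Cd4, Cd8a, Foxp3 and Lef1 always, and up to 3 called genes of each other list; a few genes of the other lists are not reported here by name. The blood comparison of silica animals between the times, and that of air animals between tissues and times, were added after the data were seen, as was the normalization without neutrophil and platelet genes.

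Groups are those of the labels. Libraries of a group are of separate animals by the numbers in their titles, and the p-values reflect how animals vary; treatment and exposure chamber cannot be told apart. Over 115 pairs of libraries of a group the chi-square per degree of freedom was 3.76 or more, so none was deposited in duplicate. Same-numbered lung and blood libraries were taken as the same animal from the number in the title. Their deviations from the group means correlated from -0.065 to 0.162 at 1 day and from -0.107 to 0.142 at 6 months. Alternatives were DESeq2 1.42.0, RLE factors, no filter, a minimum count of 50, erythroid and mitochondrial RNA genes left out, all 4 groups of a tissue in 1 model, summed lines of a name, the animal as a block, and each library left out. Promoters come from RefSeq (GRCr8), a later build than that of the tables, and were matched by symbol; 6 short motifs were searched in them and all 6 are reported.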

Additional observations from a re-analysis of the deposited data

Results flagged for a closer look

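In 264 sets of member levels (33 genes in 8 groups) 17 held an animal far from the rest of its group, where chance gives about 1 in 20. Silica animal 64 in lung at 6 months was flagged as the highest of 6 for 4 members: Themis (1.26 CPM), Txk (11.6 CPM), Tcf7 (68.3 CPM) and Lef1 (9.98 CPM). This animal was also the highest of 6 for other members that were not flagged in it, among them Cd3e (12.6 CPM) and Lck (30.7 CPM). In the same group animal 58 was highest for Cd3d (6.92 CPM) and animal 61 lowest for Lat (6.95 CPM). In air lung at 6 months animal 49 was highest for Cd3d (5.85 CPM), animal 54 highest for Cd96 (7.75 CPM) and animal 52 lowest for Skap1 (3.09 CPM). In air lung at 1 day animal 38 was lowest for Cd5 (4.37 CPM) and animal 40 lowest for Gata3 (7.35 CPM). In air blood at 6 months animal 51 was lowest for Cd28 (35.3 CPM) and highest for Sh2d1a (21.9 CPM), and animal 52 was highest for Ctla4 (4.79 CPM). In silica blood at 6 months animal 59 was highest for Cd8a (125 CPM), animal 60 lowest for Skap1 (38.1 CPM) and animal 62 highest for Gata3 (20.3 CPM).

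The effect of silica at 6 months differed between blood and lung for Il2ra (log2 -0.965, adjusted p = 0.0223; 6 of 6 silica lungs lay above all air lungs, and in blood the groups overlapped). With the 9 animals that gave both tissues and the animal as a replicate block it did not pass (log2 -1.11, adjusted p = 0.0740), and in the same animals with no block it did (log2 -1.10, adjusted p = 0.0254). The change between the times in air animals differed between blood and lung for 18 members at an adjusted p under 0.05 by edgeR. Of these 13 passed with the 10 animals that gave both tissues and a replicate block, and Cd3d, Zap70, Trat1, Sh2d1a and Ikzf3 did not; of these 5 only Ikzf3 passed in the same animals with no block. Blood minus lung, the CD3 chains gave log2 -0.643 (Cd3e), -0.625 (Cd3d), -0.721 (Cd3g) and -0.732 (Cd247). The surface receptors gave log2 -0.599 (Cd8a), -0.711 (Cd5), -0.679 (Cd6) and -0.758 (Icos). The kinases and adaptors gave log2 -0.543 (Lck), -0.458 (Zap70), -0.667 (Lat), -0.706 (Trat1), -0.74 (Ubash3a), -0.662 (Skap1), -0.49 (Sh2d1a) and -0.455 (Txk). The factors gave log2 -0.507 (Tcf7) and -0.536 (Ikzf3).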

How the results depend on the processing

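Leaving out 1 library at a time gave 1 to 2 called members in lung at 1 day, 2 to 6 in lung at 6 months, 0 to 1 in blood at 1 day, 0 to 1 for blood against lung at 1 day and 1 to 3 for blood against lung at 6 months. The count in lung at 6 months went from 3 to 5 with all 4 lung groups in 1 model, which added Tcf7 and Foxp3. DESeq2 gave 1 called member in place of 0 for the change of the silica difference in blood, and 3 in place of 1 for blood against lung at 6 months. For the latter, the paired analysis with the animal as a replicate block called 1 member, Tcf7 in place of Il2ra, and the same animals with no block gave 2. In the comparison of air animals between tissues and times, keeping the 10 animals with both tissues ended the calls of Cd3d, Zap70, Trat1 and Sh2d1a with no block, and the replicate block over these animals ended that of Ikzf3 as well; at 1 day it changed no member's call. The cause of these changes was not tested. Of 285 alternative counts of members 264 stayed within 1.5 times the reported count, and no called member changed direction. Among 2956 values of single genes 18 changed sign, each for a member near 0 that passed in neither fit, with 1 library left out. Their log2 ranges over the libraries were -0.061 to 0.106 for Cd3e in lung at 6 months and -0.068 to 0.116 for Cd3e between the times in air lung. In blood at 1 day they were -0.036 to 0.046 (Cd3e), -0.019 to 0.08 (Lef1) and -0.004 to 0.048 (Cd8a). They were -0.003 to 0.138 for Cd4 in the change of the silica difference in blood, and -0.005 to 0.165 for Cd3e in blood against lung at 6 months. The count of 27 lower members in air blood stayed 27 in each alternative but 1, which gave 28 (without air animal 53 at 6 months). Counts over all genes moved more. DESeq2 called 354 in place of 168 genes in blood at 1 day, 3 in place of 1 in blood at 6 months, 349 in place of 217 for the change in lung, 90 in place of 0 for that in blood, 1009 in place of 557 for blood against lung at 6 months and 347 in place of 55 between the times in air lung, where all 4 groups in 1 model gave 182. Leaving out 1 library gave 86 to 211 genes in blood at 1 day, 0 to 1 in blood at 6 months, 0 to 3 for the change in blood, 332 to 609 for blood against lung at 6 months and 0 to 103 between the times in air lung. The replicate block gave 415 in place of 645 genes at 1 day. At 6 months 557 genes became 461 with only the animals that gave both tissues and 202 with the block, and for air animals 3201 became 2543 and then 1950. Depth limits Ctla4, Themis and Cd40lg in lung, near or below the count filter.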
